A study of Mus musculus with 12 samples.

Results

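The glandular kallikrein cluster of the mouse is a run of closely related serine protease genes around Klk1. It was followed here as 10 genes, Klk1, Klk1b5, Klk1b8, Klk1b9, Klk1b11, Klk1b16, Klk1b22, Klk1b24, Klk1b26 and Klk1b27, picked by symbol from the 27179 gene identifiers of the count files. Symbols were matched through the Entrez identifiers, and all 10 genes had a row. The level of each gene was read in 12 RNA-seq libraries of thymic epithelial cells (TECs), the stromal cells that select developing T cells. All 10 lie on the plus strand of chromosome 7 between 43950666 and 44229622 in GRCm38.p6 (the patch release of mm10), a span of 279 kb.

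The libraries formed 4 groups of 3, all from C57BL/6 mice carrying floxed alleles of Hoil. HOIL, the product of Rbck1, is a subunit of the complex that builds linear ubiquitin chains. The control mice had no Cre (Foxn1cre +/+, Hoil lox/lox). The HOIL-deficient mice carried 1 Foxn1cre allele (Foxn1cre T/+, Hoil lox/lox), named for Foxn1, a gene active in TECs. Presence of Cre and loss of Hoil therefore cannot be told apart. From each genotype 2 populations of CD45-, TER-119-, CD31-, EpCAM+ cells were sorted: cortical TECs (cTECs; MHC class II+, Ly51+, UEA1-) and mTEChi (medullary TECs of high MHC class II; Ly51-, UEA1+). Age was not given. Replicate 3 of both HOIL-deficient groups was female and the other 10 libraries were male.

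Library totals ran from 7941217 to 14274333 counts. The sorted populations carried their markers: Aire, the regulator of ectopic transcription in medullary cells, lay at 577 to 1016 CPM (counts scaled to a library total of 1000000) in the 6 mTEChi libraries and at 0 to 1.66 CPM in the 6 cTEC libraries. Rbck1 fell from 117 ± 10.3 to 15.3 ± 6.91 CPM (mean ± SD, n = 3 per group) in mTEChi, which is -2.99 on the log2 scale (adjusted p = 4.5e-05, edgeR), and each HOIL-deficient library lay below each control. RNA make-up differed between the mTEChi groups: mitochondrially encoded genes took 3.19% to 8.93% of counts in controls and 1.71% to 1.91% in HOIL-deficient libraries, and the nuclear RNA Malat1 took 3.29% to 5.13% and 0.713% to 0.983%.

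Tissue kallikreins are secreted serine proteases that cut hormone and growth factor precursors. Klk1 itself releases kinin peptides, which dilate vessels, from kininogen, while the mouse Klk1b genes arose by local duplication and differ in their substrates. The family is best known from the granular ducts of the submandibular gland, where androgen drives high expression. Medullary TECs transcribe many genes of other organs, partly under Aire and Fezf2, and so display such tissue proteins to developing T cells.

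The likeness of the members bears on every value below, because reads from shared stretches can be counted to another member or dropped. Over the 45 pairs, the coding sequences (GENCODE M21, GRCm38) were 81.4% to 95.1% identical, with a median of 85.6%. Klk1 and Klk1b5 were the closest pair at 95.1%, followed by Klk1b24 and Klk1b27 at 93.5% and by Klk1b16 and Klk1b26 at 92.7%. The stretch around the codon of the catalytic serine shows by how many bases members differ from Klk1. It is printed for Klk1, for its closest copy Klk1b5, for the members with the deepest falls in HOIL-deficient cells, Klk1b26 and Klk1b16, and for Klk1b8, which did not pass the test. These are the first 75 coding bases of exon 5, of the length of 1 sequencing read, and capitals mark bases that differ from Klk1. The serine codon starts at base 7 in each.
Klk1, chr7:44229414-44229488: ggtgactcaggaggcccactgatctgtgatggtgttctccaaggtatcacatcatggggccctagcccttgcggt
Klk1b5, chr7:44220499-44220573: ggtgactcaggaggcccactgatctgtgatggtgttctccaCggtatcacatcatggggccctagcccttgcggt
Klk1b26, chr7:44016765-44016839: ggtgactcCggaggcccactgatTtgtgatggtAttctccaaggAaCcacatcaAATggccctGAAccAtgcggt
Klk1b16, chr7:44141406-44141480: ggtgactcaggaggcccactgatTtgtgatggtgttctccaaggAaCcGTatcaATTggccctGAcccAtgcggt
Klk1b8, chr7:43954740-43954814: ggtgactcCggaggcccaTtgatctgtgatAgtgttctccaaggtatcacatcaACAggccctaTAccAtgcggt

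Klk1b5 differed from Klk1 at 1 of these bases, Klk1b8 at 9, Klk1b16 at 11 and Klk1b26 at 12. Across whole transcripts, most 75-base windows were nonetheless found in no other gene's transcript. The share of windows that also occurred in another gene ran from 0.384% for Klk1b22 to 14.4% for Klk1 and Klk1b24, with a median of 6.12%, and was 4.80% for Klk1b16 and 5.18% for Klk1b26. The transcripts used for Klk1b5 (1391 bases) and Klk1b26 (1386 bases) were longer than their deposited gene lengths (861 and 873 bases). Their shares may therefore be higher over the stretch that was counted. How reads with several matches were counted is not stated in the labels or file headers. Each member is therefore described singly and in the sum of all 10.

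The members also shared an upstream stretch. The letters TTTAAA, which read the same on both strands, stood within 60 bases before the RefSeq start of 9 of the 10 members, all except Klk1, and in 916 of 32851 promoters (2.79%) of the same table. The 60 bases before the start are printed for 3 members with differing changes and for Klk1, with TTTAAA in capitals (GRCm38.p6, plus strand, RefSeq).
Klk1b26, chr7:44012618-44012677: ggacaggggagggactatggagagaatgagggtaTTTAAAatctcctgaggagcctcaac
Klk1b16, chr7:44137230-44137289: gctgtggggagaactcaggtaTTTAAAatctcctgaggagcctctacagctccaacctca
Klk1b8, chr7:43950606-43950665: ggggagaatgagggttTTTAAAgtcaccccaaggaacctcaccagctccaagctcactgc
Klk1, chr7:44225300-44225359: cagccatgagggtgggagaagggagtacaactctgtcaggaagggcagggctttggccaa

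In Klk1b26, Klk1b16 and Klk1b11 the letters were flanked by ta before and at after. In Klk1b5, Klk1b8, Klk1b9, Klk1b22 and Klk1b27 they were flanked by tt and gt, and in Klk1b24 by gt on both sides. Klk1b16 has a RefSeq gene model that begins further upstream, at 44122254, than the start used here. The letters ended 11 (Klk1b27) to 38 (Klk1b8) bases before the start used, so a match depends on each gene model. No member was searched beyond 60 bases. Because the Klk1b genes arose by local duplication, the 9 members with the letters are not independent matches. These matches describe letters only and were not tested against the expression values.

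In control mTEChi the 10 genes together took 952, 921 and 825 CPM in replicates 1, 2 and 3, which is 899 ± 66.0 CPM. In control cTEC they together gave 42 counts over 3 libraries, and in HOIL-deficient cTEC 18 counts, against 25338 for control and 9052 for HOIL-deficient mTEChi. The cluster was thus read at depth in medullary cells and near the detection limit in cortical ones. The ratio of control mTEChi to control cTEC was 612 for the sum (95% interval 453 to 849, exact binomial, counting error only), and the same ratio in HOIL-deficient cells was 451 (285 to 761).

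Klk1b8, Klk1b9, Klk1b11 and Klk1b24 had 0 counts in all 6 cTEC libraries. Set against a floor of 3 counts over the control cTEC group (0.105 CPM), control mTEChi was at least 547-fold higher for Klk1b8, 1067-fold for Klk1b9, 745-fold for Klk1b11 and 79.5-fold for Klk1b24. The other 6 had some cTEC counts, mostly in single libraries. Klk1 had 20, 3 and 0 counts in the control cTEC replicates and 0, 10 and 0 in the HOIL-deficient ones, and it was 223-fold higher in control mTEChi (interval 149 to 352). Klk1b16 had 6, 0 and 0 counts in control cTEC and none in HOIL-deficient cTEC, with a ratio of 596 (273 to 1624). Klk1b22 was 338-fold higher (145 to 1043) and Klk1b27 132-fold higher (60.2 to 359). The single control cTEC count of Klk1b5 and of Klk1b26 gave ratios of 693 (124 to 27403) and 6506 (1167 to 257003), whose intervals are too wide to order them. In edgeR's quasi-likelihood test all 10 were higher in control mTEChi than in control cTEC, where 37.8% of the 19398 tested genes were higher. The members passed the filter on low counts through their mTEChi libraries alone, so this count carries no weight.

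**Figure D1:**
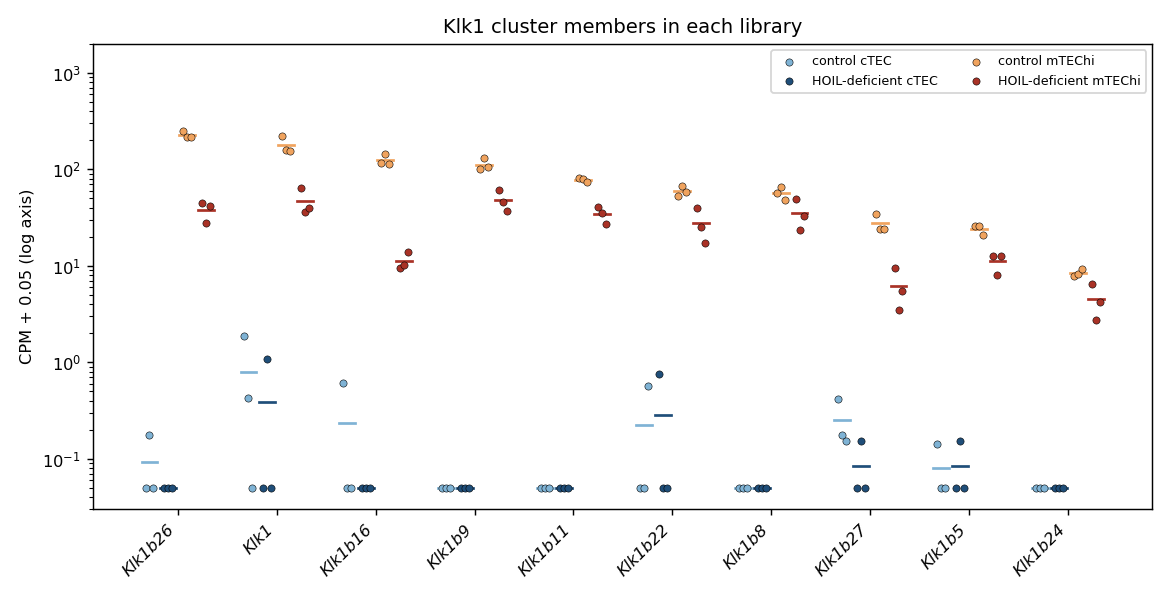
Level of each member in the 12 libraries, as CPM + 0.05 on a log axis; points are libraries (3 per group) and lines are group means, with members ordered by their mean in control mTEChi. All mTEChi libraries lie above all cTEC libraries for every member, and the HOIL-deficient mTEChi points lie below the control mTEChi points for all members but Klk1b8, where they overlap.

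Levels of different members can be compared only per length, and for that TPM was used, in which counts are divided by the deposited gene length before scaling each library to 1000000. In control mTEChi the order was Klk1b26 at 384 ± 18.4 TPM, Klk1 at 300.0 ± 48.4, Klk1b9 at 191 ± 34.8, Klk1b16 and Klk1b11 both at 134, Klk1b22 at 110.0, Klk1b8 at 99.8, Klk1b27 at 45.4, Klk1b5 at 41.4 and Klk1b24 at 14.6. The ranges of neighbours in that order overlapped for Klk1b16 with Klk1b11, Klk1b11 with Klk1b22, Klk1b22 with Klk1b8, and Klk1b27 with Klk1b5. In HOIL-deficient mTEChi Klk1b9 stood first at 87.6 ± 23.5 TPM, ahead of Klk1 at 84.3 ± 26.6 and Klk1b26 at 68.8 ± 15.6, and Klk1b16 had moved from the fourth to the eighth place at 12.8 ± 2.53. Only the step from Klk1b22 (54.6 ± 23.1 TPM) to Klk1b5 (20.3 ± 4.71 TPM) separated neighbours there without overlap. Klk1b16 was divided by a deposited length of 1381 bases, against 799 to 889 for the other members. Its places in both orders depend on that gene model.

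The cluster was lower in HOIL-deficient than in control mTEChi. The sum of the 10 members was 337, 218 and 231 CPM in HOIL-deficient replicates 1, 2 and 3, and the ratio of the group means was 0.291 (SD 0.0753), or 29.1% of control. In edgeR's test, with p-values adjusted over all 19398 genes, 7 of 10 members were lower and 0 were higher; 8.59% of all genes were lower and 11.3% higher. The median log2 fold change of the members was -1.27, beside -0.03 over all tested genes. The libraries of the 2 groups did not overlap for 9 of 10 members, which also held, with the HOIL-deficient side lower, for 20.6% of all genes. In sorted bulk RNA, fewer cells transcribing a gene and less RNA per cell cannot be told apart. With upper-quartile factors in place of TMM, the calls over all genes turned from 2191 higher and 1667 lower to 1708 higher and 1979 lower; the same 7 members were called, all lower.

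The deepest falls were in Klk1b16 and Klk1b26, a pair close in sequence. Klk1b16 encodes gamma-renin, a submandibular protease. It was read at 116, 144 and 115 CPM in control replicates 1, 2 and 3 and at 9.47, 10.2 and 13.9 CPM in HOIL-deficient ones. Every HOIL-deficient library was far below every control, at 8.93% of the control mean, for a log2 fold change of -3.54 with an SE of 0.367 (adjusted p = 0.00021). Klk1b26, an EGF-binding protein also described as a prorenin-converting enzyme, was the most abundant member in control mTEChi. Its values were 252, 216 and 216 CPM in controls and 44.3, 27.6 and 41.9 CPM in HOIL-deficient cells. The groups stood well apart, and the fitted change was -2.66 on that scale (SE 0.243, adjusted p = 0.00013).

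Klk1, the kinin-releasing tissue kallikrein, was read at 223, 159 and 156 CPM in controls and at 63.5, 36.4 and 39.8 CPM in HOIL-deficient libraries. The groups did not overlap, although replicate 1 was the highest on each side. Its fitted change was -2.02 (log2, SE 0.518, adjusted p = 0.015). This call rested on single libraries: the adjusted p was 0.077 without control replicate 1, 0.072 without HOIL-deficient replicate 2 and 0.058 without replicate 3, and it was 0.30 by DESeq2, with fold changes of -1.79 to -2.31 when 1 library was left out. Klk1b5, the near copy of Klk1, had a smaller fitted change of -1.20 (log2, SE 0.371, adjusted p = 0.036). Its values were 26.1, 25.6 and 20.8 CPM in controls and 12.5, 7.94 and 12.7 CPM in HOIL-deficient libraries, again without overlap. Its call was lost when any of the 6 mTEChi libraries was left out (adjusted p 0.068 to 0.13).

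Klk1b9 and Klk1b22 also encode proteins named for binding epidermal growth factor (EGF). Klk1b9 was read at 102, 129.8 and 105 CPM in controls and at 61.9, 45.4 and 36.8 CPM in HOIL-deficient libraries. The highest HOIL-deficient library was still well under the lowest control, and Klk1b9 fell by 1.28 (log2, SE 0.234, adjusted p = 0.0049). Klk1b22 had values of 52.9, 67.4 and 57.6 CPM in controls and 39.9, 25.5 and 17.0 CPM in HOIL-deficient libraries. These groups did not overlap either, yet the spread was wide and the difference of -1.17 (SE 0.494) did not pass the test (adjusted p = 0.11). 

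Klk1b24 and Klk1b27, described from Leydig cells of the testis, were low in both groups. Klk1b27 was read at 34.2, 24.3 and 24.2 CPM in controls and at 9.37, 3.46 and 5.39 CPM in HOIL-deficient libraries, a fall of 2.26 (log2, SE 0.442, adjusted p = 0.0037). Its groups stood apart in every library. Klk1b24 had 77, 79 and 79 counts in controls and 65, 29 and 60 in HOIL-deficient libraries, or 8.40 ± 0.660 and 4.44 ± 1.86 CPM. The difference of -0.98 (SE 0.497) did not pass the test (adjusted p = 0.20), although the groups did not overlap.

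Klk1b11 was even across controls, at 81.1, 80.0 and 73.7 CPM, and was read at 40.6, 35.3 and 27.0 CPM without HOIL. It fell by 1.26 (log2, SE 0.233, adjusted p = 0.0054). Klk1b8 had values of 57.0, 66.4 and 48.4 CPM in controls and 48.7, 23.7 and 32.6 CPM in HOIL-deficient libraries. It was the only member whose groups overlapped, through HOIL-deficient replicate 1, and its difference of -0.77 (SE 0.296) did not pass the test (adjusted p = 0.095). Without that library it was called, at a log2 fold change of -1.09.

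**Figure D2:**
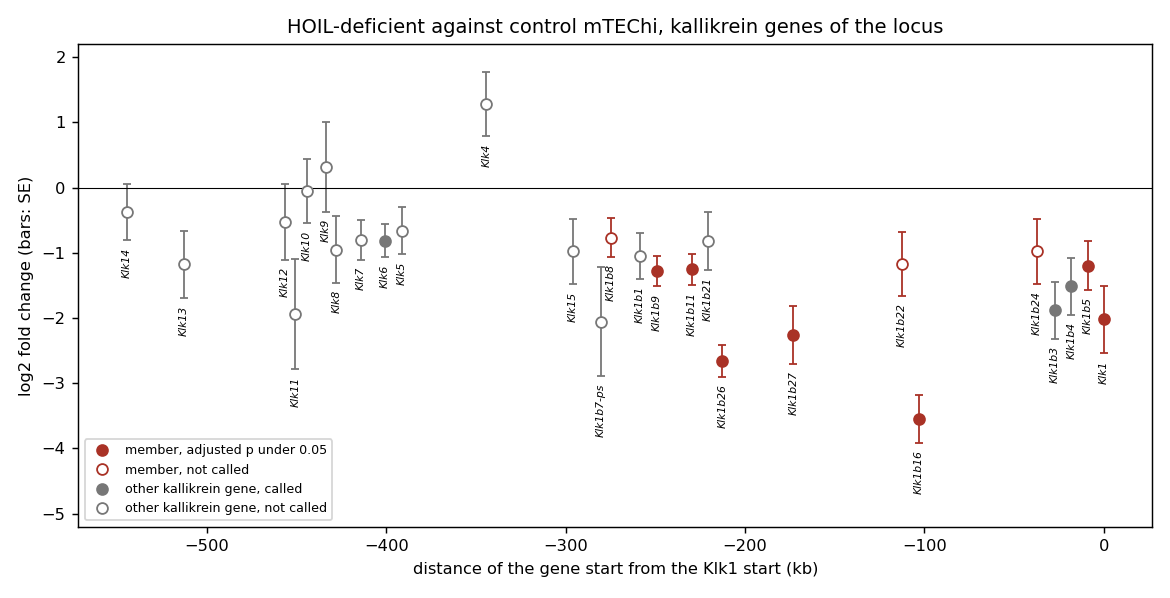
Log2 fold change of HOIL-deficient against control mTEChi for the kallikrein genes of the locus, by distance of the gene start from that of Klk1 in kb; bars are the standard error of the fit, red marks the 10 members and filled symbols are called at an adjusted p under 0.05. All 10 members lie below 0, from -0.77 (Klk1b8) to -3.54 (Klk1b16), and Klk4 is the furthest above 0 among the genes shown.

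The members Klk1b9, Klk1b11, Klk1b16, Klk1b26 and Klk1b27, were each called lower in all 16 alternative analyses. Klk1 was called in 12 of them and Klk1b5 in 8, whereas Klk1b8 was called in 4, Klk1b22 in 2 and Klk1b24 in 1. No member was higher in any of the 16. The number of members called was 5 without control replicate 1, and likewise 5 without HOIL-deficient replicate 2 or replicate 3.

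The members did not fall in proportion. Klk1b26 gave 26.5%, 23.4% and 26.1% of the summed counts in the control libraries and 13.2%, 12.7% and 18.1% in the HOIL-deficient ones. Klk1b16 gave 13.9% ± 1.73 and then 4.49% ± 1.60. In turn the share of Klk1b8 went from 6.35% ± 0.744 to 13.1% ± 1.98, that of Klk1b9 from 12.5% ± 1.71 to 18.4% ± 2.43 and that of Klk1b11 from 8.71% ± 0.208 to 13.3% ± 2.49. The share of Klk1 was 19.9% ± 3.16 and 17.6% ± 1.14, and its libraries overlapped. These are shares of counts, which also grow with gene length, and were not tested.

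Ratios of counts within a library need no scaling by library size. Klk1b26 had 3.25 to 4.46 counts for each count of Klk1b8 in controls and 0.909 to 1.29 in HOIL-deficient libraries. Within the close pairs, the ratio of Klk1 to Klk1b5 was 6.21 to 8.53 in controls and 3.14 to 5.07 in HOIL-deficient libraries, and that of Klk1b27 to Klk1b24 was 2.65 to 4.34 and then 1.28 to 1.46. The ratio of Klk1b16 to Klk1b26 was 0.461 to 0.669 and then 0.214 to 0.368. These 4 pairs, the first picked after its values were seen and the others for their close sequence, did not overlap between the groups. Over all 45 pairs of members the ratios did not overlap for 29 (64.4%). The 16 that overlapped were that of Klk1b26 to Klk1b27 and all those among Klk1b5, Klk1b8, Klk1b9, Klk1b11, Klk1b22 and Klk1b24. Pairs share members, and no ratio was tested. The share without overlap among pairs of other genes was not computed, so the 64.4% has no background to be set against.

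**Figure D3:**
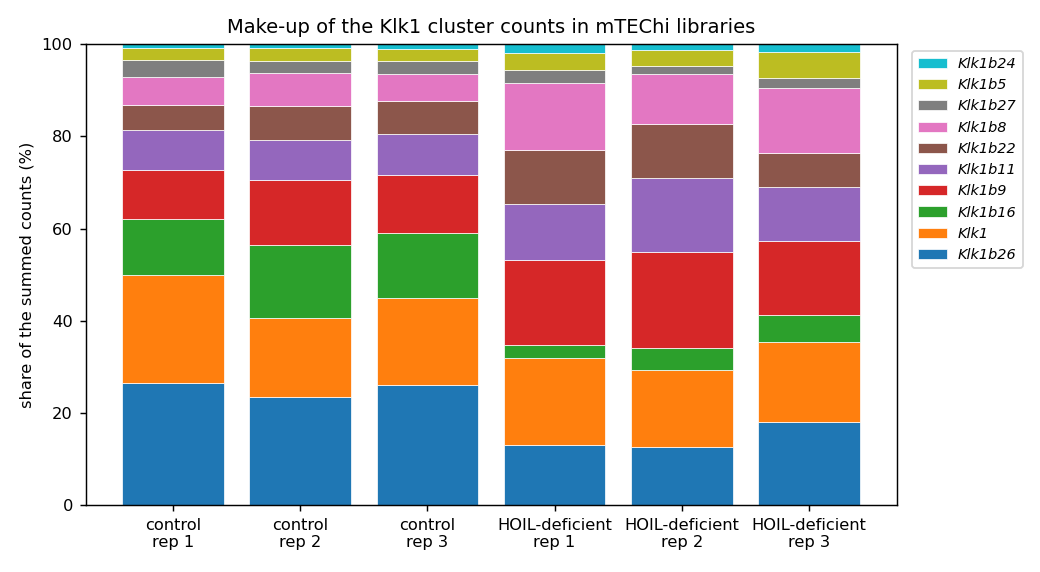
Share of each member in the summed counts of the 10 members (percent) for the 6 mTEChi libraries, 1 stacked bar per library. Klk1b26 and Klk1b16 together take a smaller part of the bar in all 3 HOIL-deficient libraries, and Klk1b8, Klk1b9 and Klk1b11 a larger one.

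The replicates differed in ways common to many members. HOIL-deficient replicate 1 was the highest of its group for 8 of 10 members and replicate 2 the lowest for 6, and control replicate 3 was the lowest of its group for 6. The female library, HOIL-deficient replicate 3, was the highest of its group for 2 members and the lowest for 3. With male libraries only, 6 members were called; Klk1b5 was the one lost (adjusted p = 0.058), and the log2 fold changes were -3.71 for Klk1b16, -2.72 for Klk1b26 and -1.90 for Klk1. After mitochondrially encoded genes were taken out of the library totals, 7 members were still called.

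Some marker lists also differed between the mTEChi groups, in a comparison where 11.3% of all genes were higher and 8.59% lower. Of 10 endothelial markers 8 were higher in HOIL-deficient mTEChi, with a summed level of 71.1 to 100.4 CPM in controls and 183 to 563 CPM without HOIL. Of 10 fibroblast and pericyte markers 2 were higher (298 to 372 and 630 to 827 CPM). Of 8 tuft cell markers 5 were lower (199 to 323 and 109.8 to 128.9 CPM). Of 12 tested exocrine gland markers (acinar and salivary), 1 was higher (Lpo) and 2 were lower (Dcpp1 and Dcpp3). The summed levels of that list were 472 to 599 CPM in controls and 703 to 844 CPM without HOIL. Its median log2 fold change was -1.01, opposite in sign to the change of its sum. Of 10 medullary markers 2 were higher (H2-Aa and Tnfrsf11a) and 1 was lower (Cd86), and of 7 tested adipocyte markers 1 was higher (Cfd). Of 10 cortical markers 3 were higher (Cxcl12, Foxn1 and Ctsl) and 1 was lower (Dll4), with summed levels of 2260.4 to 2793 CPM in controls and 2349 to 3443 CPM without HOIL. No thymocyte, B cell or dendritic cell marker was called in edgeR, and no marker of these lists was at 0 in mTEChi. The part of these shifts in the fall of the cluster was not tested.

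In cTEC no member was called between the genotypes by edgeR or limma-voom, with 1 member at an unadjusted p under 0.05 in edgeR. DESeq2 called 1, Klk1b16, lower on the strength of 6 counts in 1 control library. Over all genes 6.02% were lower and 6.06% higher. At these counts no change in the cortex was detectable, and no fold is given. The test of whether the 2 effects of HOIL loss differ found 0 of 10 members (0 at an unadjusted p under 0.05, and 0 by DESeq2 or limma-voom), where 9.84% of all genes were called; with so few cTEC counts this does not show that the effects were alike.

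Other genes of the locus went in the same direction where edgeR called them. Of 16 other Klk1b genes and pseudogenes listed, 5 had rows, and 2 were lower in HOIL-deficient mTEChi, where 8.59% of all genes were lower. DESeq2 called 3 of the 5 lower and limma-voom 4, and 0 were called higher by either. Klk1b3 went from 38.2 ± 11.5 to 10.7 ± 5.62 CPM (log2 fold change -1.88, adjusted p = 0.012). Klk1b4 went from 35.2 ± 1.29 to 12.9 ± 2.82 CPM (-1.52, adjusted p = 0.030). Klk1b1 was at 37.1 ± 1.21 and 18.7 ± 4.33 CPM and narrowly missed the test (-1.05, adjusted p = 0.052). Adding these 5 rows to the 10 members gave a sum of 1022 CPM in controls and 310.7 CPM without HOIL, or 30.4%.

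The kallikrein-related peptidases Klk4 to Klk15, several of which act in skin shedding and tooth enamel, flank the cluster on 1 side. Of these 12 genes 1 was lower and 0 were higher in HOIL-deficient mTEChi, with a median log2 fold change of -0.73. Over all genes 8.59% were lower and 11.3% higher in edgeR, so by that test 1 of 12 is near the general share. Klk6 was the one called, at 60.2 ± 15.7 and 35.4 ± 5.29 CPM (-0.82, adjusted p = 0.046). Klk7, a protease of skin shedding, had 97.3 ± 11.9 and 58.2 ± 14.5 CPM (-0.80, adjusted p = 0.083). Klk4, the enamel protease, had the opposite sign, at 30.1 ± 15.9 and 74.8 ± 9.87 CPM (1.28, adjusted p = 0.088), and its libraries did not overlap. The count depended on the tool. By DESeq2 3 of the 12 were lower and 0 were higher, where 2559 of all genes were lower and 2197 higher. By limma-voom 6 of the 12 were lower and 1 was higher, where 2434 of all genes were lower and 2229 higher. Of 7 genes of other families within 100 kb of the members, 5 were tested and 1, Clec11a, was lower (3.79 ± 1.58 and 1.33 ± 1.02 CPM, -1.53, adjusted p = 0.039).

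Genes of kallikrein partners were mostly not called. Of 15 tested genes of the kallikrein and kinin system (kininogens, kinin receptors, peptidases and serpins) 0 were called in mTEChi by edgeR, with 2 at an unadjusted p under 0.05, and by limma-voom 1 was lower. Klkb1, which encodes plasma kallikrein, was at 2.01 ± 0.490 CPM in controls and 0.361 ± 0.317 CPM without HOIL (-2.49, adjusted p = 0.12). The kinin receptor gene Bdkrb2 was at 1.74 ± 1.07 and 5.46 ± 1.51 CPM (1.61, adjusted p = 0.14). Of 7 substrate genes and their receptors, among them Egf and Ren1, 0 were called by edgeR, DESeq2 or limma-voom, and 0 had an unadjusted p under 0.05.

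Neither Aire nor Fezf2 was called. Aire was at 577, 969 and 765 CPM in controls and at 985, 783 and 1016 CPM without HOIL, with overlapping libraries (log2 fold change 0.22, adjusted p = 0.71). Fezf2 was at 311, 393 and 343 CPM and then 679.7, 584 and 595 CPM; the HOIL-deficient libraries were all higher, but the difference of 0.77 did not pass the test (adjusted p = 0.17; 0.0039 to 0.59 over the alternatives). Of 14 listed regulators of ectopic transcription 2 were higher, Xrcc5 (1.23) and Parp1 (1.22), which encode DNA repair proteins that associate with Aire. Over all genes 11.3% were higher, so 2 of 14 is near the general share.

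**Figure D4:**
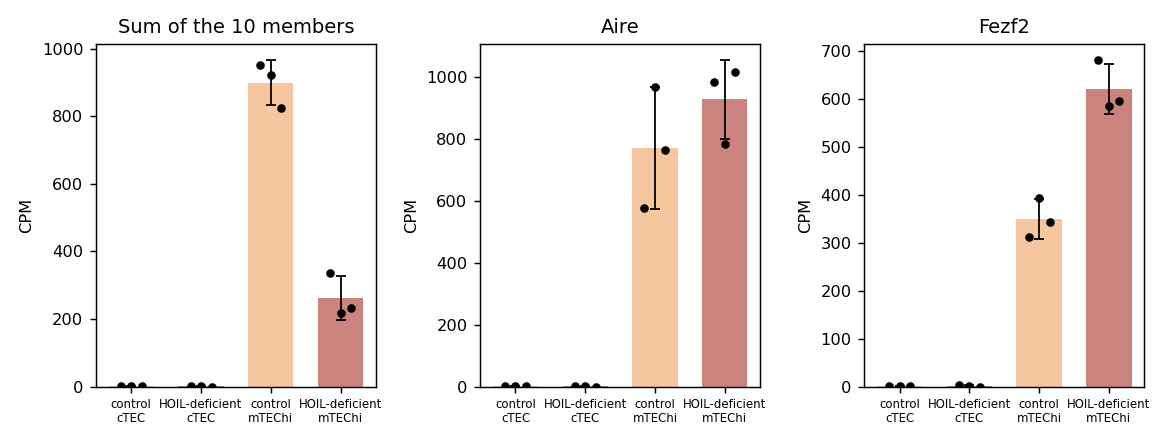
Summed CPM of the 10 members beside the CPM of Aire and of Fezf2 in the 4 groups; bars are means, error bars SD, and points the 3 libraries. The cluster sum is 899 CPM in control and 262 CPM in HOIL-deficient mTEChi, while Aire is at 770 and 928 CPM and Fezf2 at 349 and 619.6 CPM.

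The genes most like the cluster sum over the 6 mTEChi libraries, among 13497 genes at 5 CPM or more, were Zfp516 (Pearson r 0.9996), Fam178b (0.9991), Kctd14 (0.9965), Hexdc (0.9959) and Brd2 (0.9957). Zfp516, a zinc finger gene, was at 10.3 ± 0.410 CPM in controls and 5.38 ± 0.723 CPM without HOIL. Brd2, which encodes a chromatin reader, was at 145 ± 3.89 and 88.6 ± 4.77 CPM. The same measure gave -0.464 for Aire and -0.905 for Fezf2. The 6 libraries fall in 2 groups that stand apart on the sum, so any gene that differs evenly between them ranks high here.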

How the data were processed

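Thymic epithelial RNA was amplified with SMART-Seq v4, made into Nextera XT libraries and sequenced as 75-base read pairs, per the labels' protocols. The deposited values are raw counts per gene, made by the authors with featureCounts on mm10, per the submitters' processing notes; aligner, strand setting and treatment of multi-mapping reads are not stated there. Each file also carries the deposited gene length, used for TPM.

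Counts were fitted with edgeR 4.0.16 (robust quasi-likelihood, TMM factors, filterByExpr, 4 group coefficients over 12 libraries) in R 4.3.3, and p-values were adjusted by Benjamini-Hochberg over 19398 genes, called under 0.05. CPM scales counts to a raw library total of 1000000. SE is the absolute fold change over the root of F, an approximation. Of 27179 identifiers 25275 matched a RefSeq symbol; the 1904 others held 4.53% to 6.10% of counts and stayed in the fit. Alternatives used limma-voom (limma 3.58.1), DESeq2 1.42.0, other factors and filters, male libraries and left-out libraries. The fit was tested on simulated data. Apart from the female replicate 3 of each HOIL-deficient group, nothing says that replicates came from separate mice. The p-values may therefore measure technical spread. Intervals cover counting error only. Named genes were all members, Rbck1, Aire, Fezf2, the 5 most alike genes and up to 3 per list by smallest p. A further call in the list of regulators of ectopic transcription is not reported here. Members and lists were chosen with earlier results of these data known.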

Additional observations from a re-analysis of the deposited data

How the results depend on the processing

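The ratio of the summed members between HOIL-deficient and control mTEChi stayed between 0.250 and 0.316 when 1 library was left out, and between 0.278 and 0.327 under other scales or with more genes. Leaving out 1 library gave 5 to 7 members called in mTEChi, 1944 to 3116 genes called (3858 with all), 1340 to 2306 in cTEC (2342 with all) and 949 to 2088 for the difference of the effects (1908 with all); fewer samples were fitted in each. They moved by over 1.5 times without control replicates 1 or 3 or HOIL-deficient replicates 1 or 2 in mTEChi, without control replicate 3 or HOIL-deficient replicate 2 in cTEC, and, for the difference, without control mTEChi replicates 1 or 3, HOIL-deficient mTEChi replicate 3 or control cTEC replicate 3. In cTEC, 1395 genes were called when only the compared groups were fitted and 1540 with male libraries only, which also gave 1030 for the difference. DESeq2 called 1 member in cTEC. With only the compared groups 9 members were called in mTEChi. By limma-voom, which was fitted on all 12 libraries, 10 were called. The cause of these higher counts was not tested. No alternative reversed a direction of a called member. Median-ratio and upper-quartile factors moved the median log2 fold change of all genes from -0.03 to -0.11. The labels do not say whether same-numbered libraries share an animal. Within a genotype, deviations of same-numbered cTEC and mTEChi libraries from their group means correlated at r -0.037 to 0.098. None was over 0.1, so the numbers were not used to pair samples. Each HOIL-deficient cTEC library did match its own number best in mTEChi (r 0.035 to 0.078), as did control replicate 2 (0.098). Replicate 3 was also the female library in both HOIL-deficient groups. These are hints only. With a replicate block 6 members were called, Klk1b5 being lost (adjusted p = 0.061). Depth limits the cTEC values, where 3 counts over a group equal 0.105 CPM in controls and 0.0953 CPM without HOIL.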
